A study of Rattus norvegicus with 10 samples.

Results

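The genes described here encode the phototransduction machinery of rods and cones and the transcription factors that set photoreceptor fate. They were named one by one, 41 in all, and 37 had at least 1 probe set with that gene as its only symbol in the platform annotation, out of 14324 genes measured in this way. Where a gene had several such probe sets, the one brightest on average was used. By role, 8 of 9 rod phototransduction genes, 10 of 10 cone phototransduction genes, 13 of 14 genes shared by both cell types (outer segment structure, calcium feedback, retinoid handling and protein trafficking) and 6 of 8 fate regulators were measured. Pde6g, Nr2e3, Rp1 and Otx2 had no singly named probe set and were not analysed here.

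The study measured RNA of whole rat retina at postnatal day 3 on 10 Affymetrix whole-transcript gene arrays. Litters of the strains F344 and SD entered a chamber within 12 hours of birth and went through 24-hour periods of 80% and of 21% oxygen in turn, or were kept in room air to the same age. Each array held a pool of RNA of 3 rats from 2 litters, with 3 pools for F344 in cyclic hyperoxia, 2 for F344 in room air, 2 for SD in cyclic hyperoxia and 3 for SD in room air. The design text calls F344 resistant and SD susceptible to oxygen-induced retinopathy, which is used in rodents to model the retinopathy of preterm infants, and the comparisons ask how the strains and the exposures differ at this early stage. No genotype other than the strain is given, and pooling hides the spread between single rats. Values are deposited log2 expression values given to 1 decimal, so a difference of 1 on this scale is a doubling.

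Rods and cones turn light into a fall of cyclic GMP. A visual pigment activates transducin, transducin activates a phosphodiesterase, and the loss of cyclic GMP closes the cation channel of the outer segment. Arrestin and guanylate cyclase activators then help to return the cell to rest. In rodents cones are born before birth and rods are born in a long wave that runs past birth, so at this age much of the retina still divides or has only begun to differentiate. Crx drives photoreceptor genes in both cell types, Nrl directs cells to the rod fate, and Thrb and Rxrg shape cone opsin choice.

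The upstream sequences of 4 members are shown because their genes carry the patterns described afterwards: Opn1sw separated the strains, Sag was lowest in F344 room-air retina, Gngt1 shifted most between pools, and Cngb1 is the only one of these 4 to hold both motifs searched. Each run is the 250 bases before the annotated gene start in RefSeq (GRCr8, 5′ to 3′ on the gene's strand), with motif matches in capitals. The motifs were TAATCC, which Crx and Otx2 bind (GGATTA on the other strand), and TGCTGA, the core of the element bound by Nrl and other Maf factors (TCAGCA on the other strand). Opn1sw lies at chr4:58945826-58946075 on the minus strand, Sag at chr9:95916947-95917196, Gngt1 at chr4:32960695-32960944 and Cngb1 at chr19:9732396-9732645, all 3 on the plus strand.
Opn1sw: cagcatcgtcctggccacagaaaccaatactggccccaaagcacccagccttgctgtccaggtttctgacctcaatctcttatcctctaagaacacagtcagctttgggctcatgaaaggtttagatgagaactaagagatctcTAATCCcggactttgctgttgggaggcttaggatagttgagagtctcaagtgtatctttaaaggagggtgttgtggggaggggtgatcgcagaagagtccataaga
Sag: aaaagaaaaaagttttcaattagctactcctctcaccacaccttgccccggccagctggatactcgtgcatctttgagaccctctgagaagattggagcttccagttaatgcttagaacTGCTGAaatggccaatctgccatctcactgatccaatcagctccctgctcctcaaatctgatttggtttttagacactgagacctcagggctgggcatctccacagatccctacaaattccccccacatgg
Gngt1: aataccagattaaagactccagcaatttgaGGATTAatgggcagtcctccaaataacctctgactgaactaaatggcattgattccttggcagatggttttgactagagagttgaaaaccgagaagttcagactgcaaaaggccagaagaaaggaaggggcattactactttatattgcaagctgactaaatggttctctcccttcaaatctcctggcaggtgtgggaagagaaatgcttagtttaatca
Cngb1: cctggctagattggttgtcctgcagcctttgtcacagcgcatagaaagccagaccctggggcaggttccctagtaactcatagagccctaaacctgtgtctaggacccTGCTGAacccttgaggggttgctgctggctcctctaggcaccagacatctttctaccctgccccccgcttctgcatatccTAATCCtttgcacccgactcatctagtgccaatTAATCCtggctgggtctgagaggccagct

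Of the 41 members, 30 were in the RefSeq promoter table. TAATCC was found on either strand in 11 of these 30 (36.7%), and in 2121 of all 33469 promoters (6.34%). The 11 were Gngt1, Pde6a, Cngb1, Opn1sw, Prph2, Abca4, Guca1a, Rbp3, Aipl1, Crx and Thrb, so they span rod, cone, shared and fate roles. TGCTGA was found in 6 of 30 (20%: Sag, Pde6b, Cngb1, Rdh12, Thrb and Neurod1) and in 5067 of all promoters (15.1%). A match is a run of letters and does not show that a factor binds there.

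The members ranged widely in signal, and 30 of 37 had a mean above that of the median probe set. The 7 below it were Opn1mw, Cnga3, Arr3, Guca1a, Guca1b, Rdh12 and Grk1, where small differences are least well measured. Opn1mw, the middle-wave cone opsin, lay between 4.2 and 4.6 in all 10 pools, while Opn1sw, the short-wave cone opsin, lay between 8.6 and 9.5. Levels of different probe sets are not comparable with each other, so these values are not an order of abundance. Several members hardly varied. Neurod1, a basic helix-loop-helix factor of photoreceptor precursors, stayed between 11.9 and 12.1, the retinoid carrier Rbp3 between 9.7 and 10, and Gnat2, the cone transducin alpha subunit, between 11.9 and 12.2. The widest ranges over the 10 pools were those of Gngt1 (2.0), Pdc (1.7), Sag (1.6), Tulp1 (1.4) and Cnga1 (1.3). The map of the members' deviations shows these rows beside the flat ones.

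**Figure D1:**
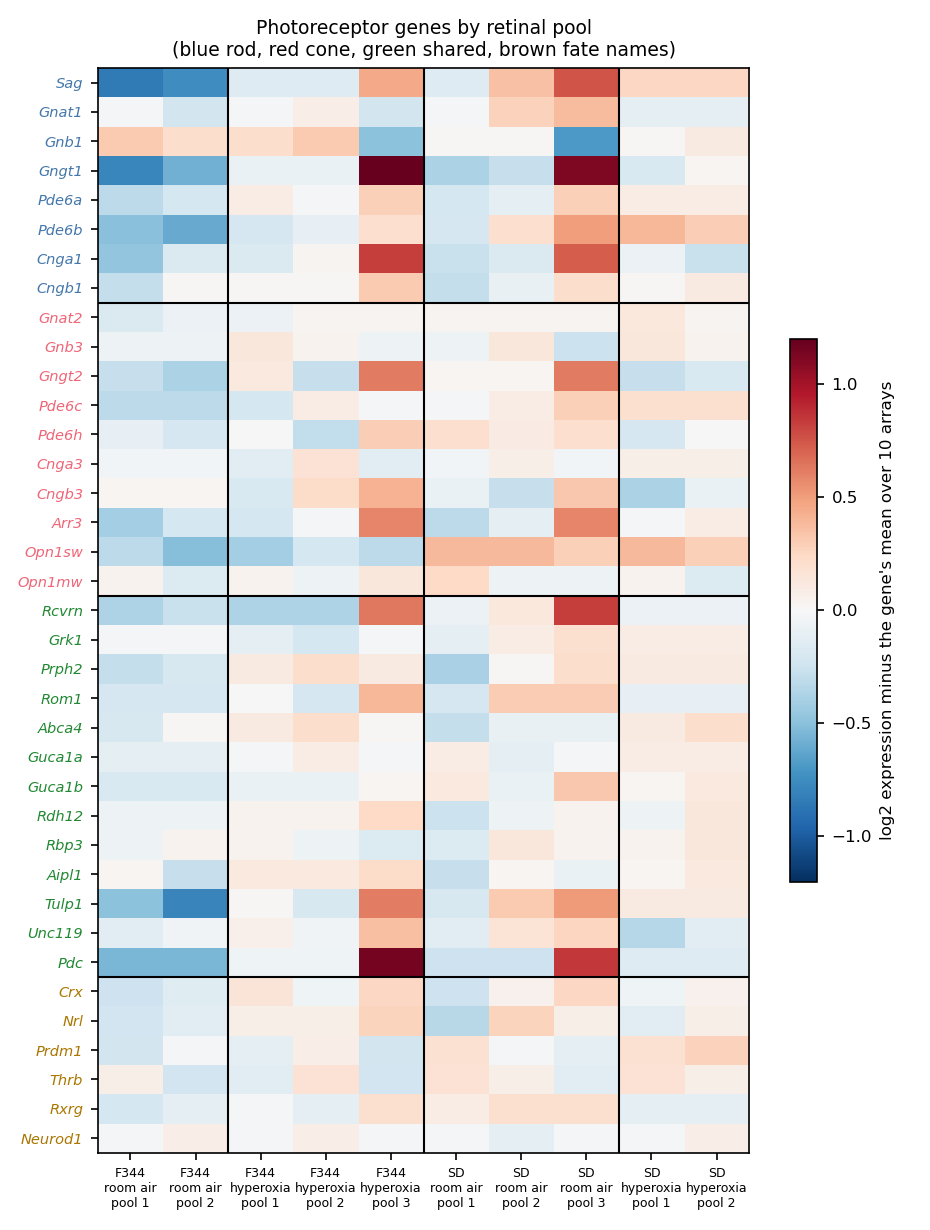
Deviation of each measured member (rows, grouped by role) from its own mean over the 10 pools (columns, by strain, exposure and pool number), on the log2 scale. The pools numbered 3 stand out in rod and shared genes such as Gngt1 and Pdc, F344 room-air pools 1 and 2 are low in Sag and Tulp1, and Neurod1 and Rbp3 hardly vary.

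Both pools numbered 3 (1 in F344 hyperoxia, 1 in SD room air) stood apart from the other pools of their groups. The design text says that 1 array of each of these groups was added once the first 8 had been through principal component analysis, and the pools numbered 3 were taken to be these from the numbering alone. Across all 27342 probe sets, 1973 were higher (7.22%) and 2084 lower (7.62%) in these pools by limma at an adjusted p under 0.05, and with each array centred on its median the split was 1172 higher and 2909 lower. In bulk retina, more or fewer cells of a type and more or less RNA per cell cannot be told apart. In the comparisons of strain and exposure, each named member whose value moved by over 1.5 times without these pools is therefore given without them too.

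Among the photoreceptor genes, 12 of 37 were higher in the pools numbered 3 (32.4%) and 1 was lower (2.70%), against the 7.22% and 7.62% of all probe sets. Probe sets above the median signal were called more often when fitted alone, which also changes the adjustment. In that fit 2049 of 13652 were higher and 2558 lower. Of the 30 members above the median, 11 were higher and 1 lower in the main fit, so these shares come from different fits. The 12 were 6 rod genes (Gngt1, Cnga1, Sag, Pde6b, Pde6a and Cngb1), 3 cone genes (Arr3, Gngt2 and Cngb3) and 3 shared genes (Pdc, Rcvrn and Tulp1), and the 1 lower gene was Gnb1. None of the 6 measured fate regulators passed. The median difference was 0.18 over all 37 members and 0 over all genes, with medians of 0.39 for rod, 0.09 for cone, 0.20 for shared and 0.08 for fate genes. Both pools numbered 3 lay above every other pool of their group in 17 of 37 members (45.9%, against 16.6% of all genes) and below in 4 (10.8%, against 17.9%). The 4 were Gnb1, Gnb3, Prdm1 and Thrb, and Crx was the fate regulator among the 17.

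Gngt1, the gamma subunit of rod transducin, read 10.1 in F344 hyperoxia pool 3 against 8.8 and 8.8 in pools 1 and 2, and 10 in SD room-air pool 3 against 8.5 and 8.6. Its values were 8.1 and 8.3 in F344 room air and 8.7 and 8.9 in SD hyperoxia, so both pools numbered 3 lay above all 8 others. The difference was 1.38 (SE 0.099, limma adjusted p = 1.62e-05), or 2.59-fold. Pdc encodes phosducin, which binds the beta and gamma subunits of transducin. It read 9.8 against 8.6 and 8.6 in F344 hyperoxia and 9.5 against 8.4 and 8.4 in SD room air, with 8.1 and 8.1 in F344 room air and 8.5 and 8.5 in SD hyperoxia. The difference was 1.15 (SE 0.083, adjusted p = 1.62e-05). These are the members with the greatest rise in the pools numbered 3.

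Cnga1, the alpha subunit of the rod channel, read 9.7 against 8.7 and 8.9 in F344 hyperoxia, and 9.6 against 8.6 and 8.7 in SD room air. It lay between 8.4 and 8.8 in the other 4 pools, and its difference was 0.93 (SE 0.11, adjusted p = 2.99e-04). Recoverin, the calcium sensor encoded by Rcvrn, read 10.1 against 9.1 and 9.1, and 10.3 against 9.4 and 9.6, with 9.1 to 9.4 elsewhere. Its difference was 0.90 (SE 0.095, adjusted p = 1.44e-04). The cone genes that rose were the cone arrestin Arr3, the cone transducin gamma subunit Gngt2 and the cone channel subunit Cngb3. Arr3 read 6.4 in both pools numbered 3 and 5.4 to 5.9 in the other 8, a difference of 0.75 (SE 0.10, adjusted p = 6.80e-04). Gngt2 read 10.2 in both against 9.2 to 9.7, a difference of 0.65 (SE 0.11, adjusted p = 0.00218). Cngb3 differed by 0.45 (SE 0.124, adjusted p = 0.0281).

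**Figure D2:**
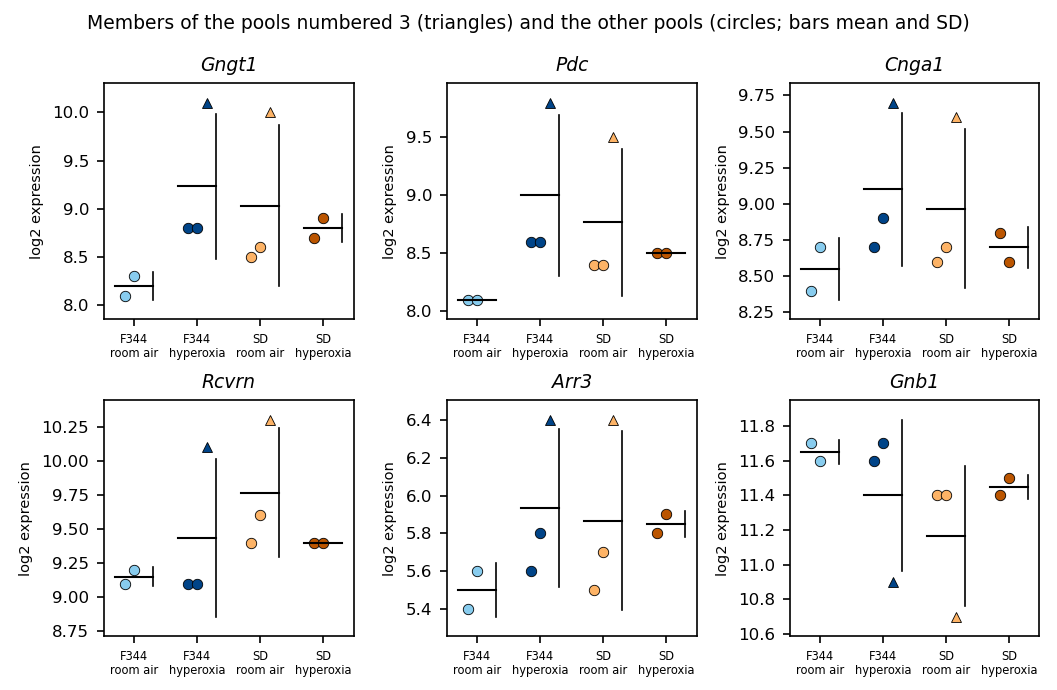
Log2 expression of 6 members in each pool by strain and exposure; triangles are the pools numbered 3, circles the other pools, horizontal bars group means and vertical bars the SD. In Gngt1, Pdc, Cnga1, Rcvrn and Arr3 both triangles lie above all circles, and in Gnb1 both lie below.

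Gnb1, the transducin beta subunit of rods, which many other cells also use, went the other way. It read 10.9 against 11.6 and 11.7 in F344 hyperoxia and 10.7 against 11.4 and 11.4 in SD room air, below its values of 11.4 to 11.7 in the other 4 pools. The difference was -0.73 (SE 0.088, adjusted p = 3.36e-04), and a second Gnb1 probe set gave -0.63 (SE 0.084, adjusted p = 5.93e-04). The rod transducin gamma gene was thus higher and Gnb1 lower, though in whole retina the fall of Gnb1 cannot be assigned to rods. The alpha subunit gene Gnat1 was at 6.1 against 6.3 and 6.4 in F344 hyperoxia and at 6.7 against 6.3 and 6.6 in SD room air. The other rod genes moved less than Gngt1. Sag, the rod arrestin, differed by 0.63 (SE 0.12, adjusted p = 0.0044), Pde6b by 0.43 (SE 0.113, adjusted p = 0.0234), Pde6a by 0.35 (SE 0.092, adjusted p = 0.0225) and Cngb1 by 0.35 (SE 0.105, adjusted p = 0.0404). Tulp1, which serves protein transport to the outer segment, differed by 0.58 (SE 0.138, adjusted p = 0.0145).

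The fate regulators with the smallest p were Crx at 0.28 (SE 0.107, adjusted p = 0.11), Thrb at -0.25 (SE 0.112, adjusted p = 0.166) and Prdm1, a repressor of bipolar fate, at -0.20 (SE 0.103, adjusted p = 0.233). Crx read 11.2 in both pools numbered 3 and 10.7 to 11.1 in the others. Nrl read 9.6 and 9.4 in these pools, within the 9.0 to 9.6 of the others. In the main fit the calls thus fell on genes of the rod and cone machinery, and Opn1sw, at -0.05 (SE 0.098), was among those that did not pass. Crx passed in 1 of 18 alternatives, with the trend and robust settings of eBayes (limma adjusted p = 0.032).

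**Figure D3:**
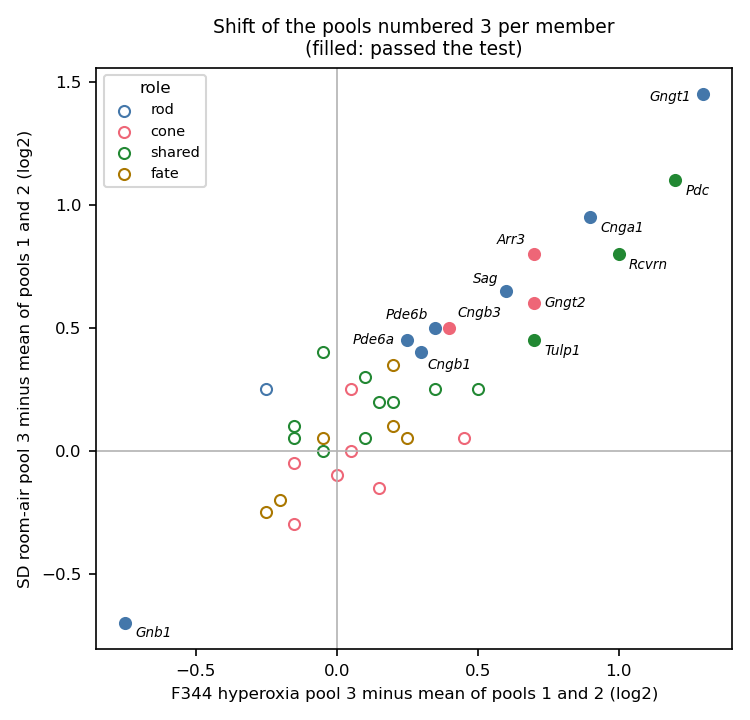
Each point is a member; the x axis is its value in F344 hyperoxia pool 3 minus the mean of pools 1 and 2, the y axis the same for SD room air, both on the log2 scale, coloured by role and filled where the member passed the test. Gngt1 (1.30 and 1.45) and Pdc (1.2 and 1.1) lie at the upper right, Gnb1 (-0.75 and -0.70) at the lower left, and the fate regulators lie near the centre.

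The shift was seen in each pool taken alone. The members' median was 0.20 in F344 hyperoxia pool 3 and 0.25 in SD room-air pool 3, each against pools 1 and 2 of its group and without a test. Gngt1, Pdc, Cnga1, Rcvrn and Gnb1 passed in all 18 alternatives tried. Without F344 hyperoxia pool 3 the count was 6 members and without SD room-air pool 3 it was 5. Sag, Pde6a, Pde6b, Cngb1, Gngt2, Cngb3 and Tulp1 passed in neither, and Arr3 had an adjusted p of 0.0599 without the second of these pools. Leaving out 1 of the other 8 pools gave 9 to 13. With median centring 9 members passed, and Pde6a, Pde6b, Cngb1 and Cngb3 did not. The highest count over the 18 alternatives was 16.

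Genes of other kinds moved with the same pools, and their part in the photoreceptor shift was not tested. Of 17 measured cell cycle genes 11 were lower and 0 higher, with a median of -0.42; their summed linear level was 9836 to 10538 in the pools numbered 3 and 12186 to 13413 in the other 8. Of 9 ganglion cell genes 3 were higher (median 0.25, summed level 3057 to 3357 against 2101 to 2694). Of 6 endothelial genes 1 was higher (median 0.24), and of 4 erythroid genes 1 was higher (median 0.06). Of 10 amacrine and horizontal cell genes 1 was higher and 2 lower. Of 10 bipolar cell genes 1 was higher and 1 lower. No lens or skeletal muscle gene passed. Of 11 pigment epithelium genes 4 were higher and 1 lower (median 0.22), with a summed level of 3032 to 3069 against 2497 to 3135. Ttr (1.23), Rgr (1.15), Tyr (0.90) and Tyrp1 (0.68) were higher and Rlbp1 (-0.40) was lower. Rlbp1 had the highest signal of the list, 10.2 and 10.3 against 10.5 to 10.8, so its fall offset part of the rises in that sum. Ttr read 10 and 9.9 against 8.5 to 9.3, and Rgr 8 and 7.9 against 6.6 to 7.5. Tyr and Tyrp1 overlapped the other 8 pools. The defining genes Rpe65, Lrat and Best1 lay near the bottom of the scale, at 4.2 to 4.7 in all pools, where a change is hard to see. Among 19 measured photoreceptor genes outside the members, Impg1, a matrix proteoglycan around outer segments, was higher by 0.73 (SE 0.116, adjusted p = 0.0016) and Rgs9bp, the anchor of the transducin deactivation complex, was lower by 0.55 (-0.55, SE 0.109, adjusted p = 0.0055); their median was 0.12. Among 11 other fate regulators Foxn4, a factor of retinal progenitors, was lower (-0.40, SE 0.088, adjusted p = 0.0095), with a median of 0.05.

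Opn1sw, the short-wave opsin of blue- or ultraviolet-sensitive cones, was the 1 member that passed between the strains, higher in SD than in F344 under both exposures. It read 9.5, 9.5 and 9.4 in SD room air and 9.5 and 9.4 in SD hyperoxia. In F344 it read 8.8 and 8.6 in room air and 8.7, 8.9 and 8.8 in hyperoxia. Every SD pool thus lay above every F344 pool, with both pools numbered 3 among their own strain. The difference was 0.77 in room air (SE 0.11, limma adjusted p = 0.00656), or 1.70-fold, and 0.65 in hyperoxia (SE 0.11, adjusted p = 0.02), or 1.57-fold. The middle-wave opsin Opn1mw, near the bottom of the scale, read 4.2 to 4.6 in SD and 4.2 to 4.5 in F344. The room-air call was lost with only the groups compared (limma adjusted p = 0.165). Without F344 room-air pool 2, which left 1 pool in that group, the difference was 0.67. Over 21 alternatives the room-air difference ran from 0.67 to 0.87. The hyperoxia call was lost with only the groups compared (limma adjusted p = 0.25) and without both pools numbered 3 (0.0739). It was also lost without F344 hyperoxia pool 1 (0.0966) or pool 3 (0.054). Without SD hyperoxia pool 1 or pool 2, which left 1 pool in that group, the difference was 0.60 or 0.70. Over 21 alternatives the hyperoxia difference stayed between 0.60 and 0.70. Of 10 measured bipolar cell genes, 1 was called higher and 1 lower in SD in each of these comparisons, and their part was not tested.

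In room air the members as a whole lay higher in SD. Of all probe sets, 0.358% were called higher and 0.197% lower in SD, and of the members 1 of 37 was called, Opn1sw. The SD pools lay wholly above the F344 pools in 13 of 37 members (35.1%, against 10.8% of all genes) and wholly below in 1, Gnb1 (2.70%, against 9.93%). The 13 were Sag, Gngt1 and Pde6b among rod genes, Gnat2, Gngt2, Pde6c, Pde6h and Opn1sw among cone genes, Rcvrn, Guca1b, Tulp1 and Pdc among shared genes, and Rxrg among fate regulators. The median difference was 0.18 over the members and 0.0 over all genes, and 31 members lay above 0. With a term for the pools numbered 3 the members' median was 0.13, and without those pools it was 0.15. Among other lists, 8 of 9 ganglion cell genes lay above 0, as did 6 of 11 pigment epithelium and 6 of 10 amacrine and horizontal cell genes. Their medians were 0.10, 0.05 and 0.06. Tyrp1 (0.88) and Calb1 (0.47), the largest rises of the last 2 lists, lay wholly above F344 but did not pass. The part of these lists was not tested.

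Sag read 10.2, 10.7 and 11.1 in SD room air and 9.5 and 9.6 in F344 room air, with no overlap. The difference was 1.12 (SE 0.23, adjusted p = 0.06), which did not pass; with the term it was 0.91 (adjusted p = 0.00338), and over the 21 alternatives the adjusted p ran from 0.0034 to 0.469. Pde6b, a catalytic subunit of the rod phosphodiesterase, read 7.5, 7.9 and 8.2 in SD and 7.2 and 7.1 in F344. Its difference was 0.72 (SE 0.179, adjusted p = 0.133), and 0.57 with the term (adjusted p = 0.0425; range over alternatives 0.0408 to 0.782). Tulp1 read 7.8, 8.3 and 8.5 against 7.5 and 7.2, a difference of 0.85 (SE 0.23, adjusted p = 0.174). These 3 genes share low values in both F344 room-air pools.

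Among cone genes, Pde6c, the catalytic subunit of the cone phosphodiesterase, read 6.0, 6.1 and 6.3 in SD room air against 5.7 and 5.7 in F344, a difference of 0.43 (SE 0.122, adjusted p = 0.196). Gngt2, also a cone gene, differed by 0.55 (SE 0.231, adjusted p = 0.397). The rod gene Gnat1 differed by 0.33 (SE 0.138, adjusted p = 0.391). Of the shared genes, Rcvrn differed by 0.62 (SE 0.292, adjusted p = 0.449) and the cyclase activator Guca1b by 0.30 (SE 0.122, adjusted p = 0.383). Without the pools numbered 3, Gngt2 and Rcvrn differed by 0.35 each. The fate regulators showed smaller differences: Rxrg 0.32 (SE 0.112, adjusted p = 0.307), Crx 0.22 (SE 0.145, adjusted p = 0.604, and 0.10 without those pools) and Nrl 0.18 (SE 0.157, adjusted p = 0.688). None of these passed. No gene of the 19 other photoreceptor genes or the 11 other fate regulators passed; the largest differences were Gucy2f at -0.37 and Impg1 and Cabp4 at 0.28 each, and Tbx2 at 0.25 and Dicer1 at -0.22.

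**Figure D4:**
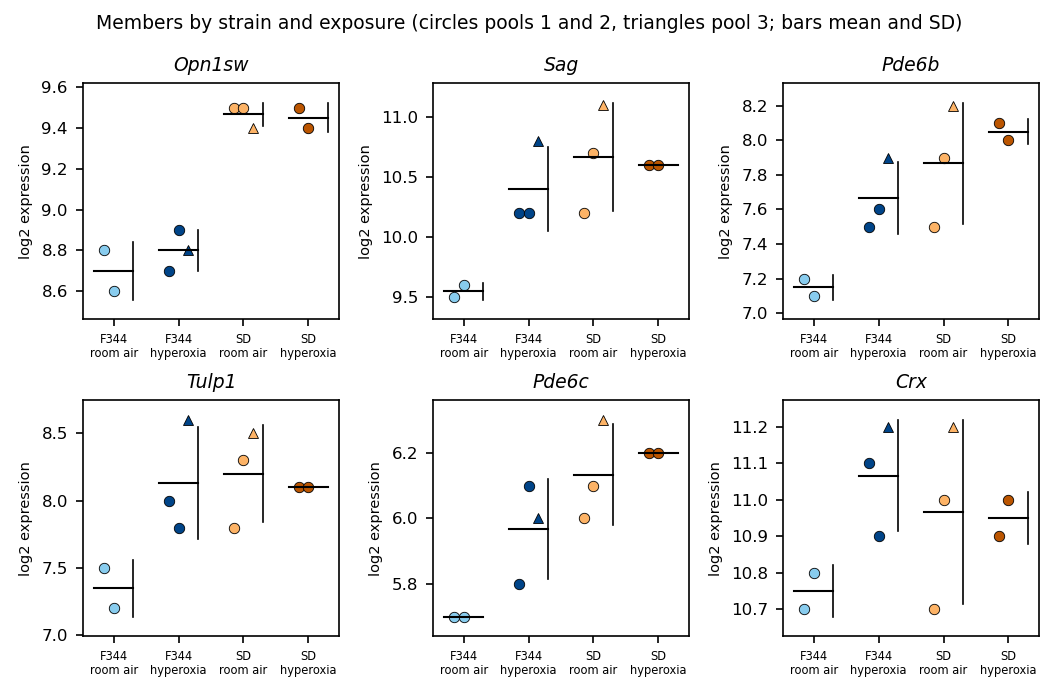
Log2 expression of 6 members in each pool by strain and exposure, with triangles for the pools numbered 3, horizontal bars for group means and vertical bars for the SD. All 5 SD pools lie above all 5 F344 pools in Opn1sw (9.4 to 9.5 against 8.6 to 8.9), and in Sag, Pde6b and Tulp1 the F344 room-air pools lie below the other 3 groups.

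In hyperoxia the strain difference over the members was near 0, with a median of -0.03, 16 members above 0 and 21 below. Of all probe sets 0.252% were called higher and 0.205% lower in SD, and Opn1sw was the 1 member called. SD lay wholly above F344 in 5 members (13.5%, against 8.04% of all genes): Opn1sw, Pde6b, Pde6c, Prdm1 and the pigment kinase Grk1. It lay wholly below in 2 (5.41%, against 7.34%), Unc119 and Pdc. Pde6b read 8.1 and 8.0 in SD and 7.5, 7.6 and 7.9 in F344, a difference of 0.38 (SE 0.179, adjusted p = 0.755). Prdm1 read 9.7 and 9.8 against 9.4, 9.6 and 9.3, a difference of 0.32 (SE 0.129, adjusted p = 0.683). Unc119, which carries lipid-tailed proteins such as transducin, read 9.4 and 9.6 against 9.8, 9.7 and 10.1, a difference of -0.37 (SE 0.149, adjusted p = 0.68).

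The other members named by smallest p in hyperoxia also did not pass. Pde6c stood at 0.23 (SE 0.122, adjusted p = 0.795), Cngb3 at -0.38 (SE 0.193, adjusted p = 0.788; -0.25 without the pools numbered 3) and Grk1 at 0.20 (SE 0.114, adjusted p = 0.836). Cnga1 stood at -0.40 (SE 0.305) and Pdc at -0.50 (SE 0.36), and both were at -0.10 without the pools numbered 3. Thrb stood at 0.18 and Rxrg at -0.13, and at 0.10 and -0.05 without those pools. Gngt1 stood at -0.43 (SE 0.43, adjusted p = 0.907) and at 0.03 with the term for the pools numbered 3, so its sign rests on the pools numbered 3. Of the other photoreceptor genes none passed, with Rgs9bp at 0.37 and Gucy2f at -0.32, and of the other fate regulators none passed, with Neurod4 at -0.52 (SE 0.113, adjusted p = 0.094) and Foxn4 at 0.32. Markers of other cells moved with this comparison. The summed level of the ganglion cell genes was 2101 to 2172 in SD hyperoxia and 2376 to 3357 in F344 hyperoxia. That of the amacrine and horizontal cell genes went the other way, at 6206 to 6271 against 5608 to 5767. The median difference was -0.17 for the ganglion cell genes and 0.06 for the amacrine and horizontal cell genes. Of the latter, 6 of 10 lay above 0 and 4 below. Tfap2b, among the highest signals of that list, read 11.3 and 11.3 in SD against 11, 11.1 and 10.7 in F344. The part of these lists in the members' values was not tested.

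Cyclic hyperoxia in F344 came with higher readings in most members, none of which passed. By limma 0 of 37 members were called (10 at an unadjusted p under 0.05), against 0.00366% of all probe sets, where 1320 of 27342 had an unadjusted p under 0.05. The hyperoxia pools lay wholly above the room-air pools in 14 of 37 members (37.8%, against 6.6% of all genes) and wholly below in 0 (against 6.32%). The 14 were Sag, Gngt1, Pde6a, Pde6b, Pde6c, Prph2, Guca1a, Guca1b, Rdh12, Aipl1, Tulp1, Pdc, Crx and Nrl. Guca1a, Guca1b and Rdh12 are dim members that separated by little. Guca1a, for instance, read 4.6, 4.7 and 4.6 in hyperoxia against 4.5 and 4.5 in room air. Of the 30 members above the median probe set, 11 lay wholly above room air. The members' median difference was 0.20, with 0.45 for rod, 0.12 for cone, 0.22 for shared and 0.11 for fate genes, and 32 members lay above 0; the median over all genes was 0.0. With the term for the pools numbered 3 the members' median was 0.13, and without those pools 0.15. Without them the medians were 0.28 for rod, 0.10 for cone, 0.10 for shared and 0.10 for fate genes, so the rod and shared medians rest in large part on pool 3. This comparison and the room-air comparison of the strains share the 2 F344 room-air pools, so they are not independent.

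Sag read 10.2, 10.2 and 10.8 in F344 hyperoxia and 9.5 and 9.6 in F344 room air. The difference was 0.85 (SE 0.23, adjusted p = 0.921), and 0.65 without the pools numbered 3. Tulp1 read 8.0, 7.8 and 8.6 against 7.5 and 7.2, a difference of 0.78 (SE 0.23). Pdc read 8.6, 8.6 and 9.8 against 8.1 and 8.1, a difference of 0.90 (SE 0.36) that was 0.50 without the pools numbered 3. Gngt1, singled out after its values were seen, differed by 1.03 (SE 0.43) and by 0.60 without the pools numbered 3, with pools 1 and 2 at 8.8 against 8.1 and 8.3. In these genes pools 1 and 2 already lay above both room-air pools, and pool 3 lay higher still.

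The remaining F344 differences were smaller. Pde6b differed by 0.52 (SE 0.179), Pde6a by 0.38 (SE 0.147), Pde6c by 0.27 (SE 0.122), Gngt2 by 0.48 (SE 0.231) and Arr3 by 0.43 (SE 0.254). Without the pools numbered 3, Gngt2 differed by 0.25 and Arr3 by 0.20. Prph2, which shapes the disc rim, read 9.5, 9.6 and 9.5 against 9.1 and 9.2, a difference of 0.38 (SE 0.149). Crx read 11.1, 10.9 and 11.2 against 10.7 and 10.8, and Nrl read 9.4, 9.4 and 9.6 against 9.1 and 9.2. Each of these regulators differed by 0.32, and Rxrg by 0.18 (0.10 without the pools numbered 3). The adjusted p was 0.921 for every member whose F344 difference is given here. Of the other photoreceptor genes none passed, with Cacna1f at 0.32 and Rpgrip1 at 0.27, and of the other fate regulators none passed, with Neurod4 at 0.42 and Mef2d at 0.15. Of the 11 pigment epithelium genes, 7 lay above 0 and 4 below, with a median of 0.08 and a summed level of 2497 to 3069 against 2514 to 2621. Tyr (1.10), Tyrp1 (0.82) and Mlana (0.30) lay wholly above room air, and Rrh (-0.23) and Best1 (-0.10) wholly below. The 6 measured endothelial genes had a median of -0.37 and a summed level of 225 to 246 against 265 to 319. The part of either in the members' values was not tested.

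In SD the members lay on both sides of 0 with exposure. None was called (4 at an unadjusted p under 0.05), against 0.0439% of all probe sets, where 1628 had an unadjusted p under 0.05. The median was -0.02, with 18 members above 0 and 19 below, and it was 0.08 with the term for the pools numbered 3 and 0.05 without those pools. The rod median was 0.02, 0.18 with the term and 0.20 without those pools, beside 0.45, 0.25 and 0.28 in F344. The gap between the strains in the rod genes therefore rests largely on the pools numbered 3. The hyperoxia pools lay wholly above room air in 1 member (2.70%, against 6.67% of all genes) and wholly below in 4 (10.8%, against 7.34%). The 1 was Abca4, the retinoid flippase of outer segment discs, at 10.4 and 10.5 against 10, 10.2 and 10.2, a difference of 0.32 (SE 0.116). The 4 were Gnat1 at -0.33 (SE 0.138), Gngt2 at -0.45 (SE 0.231; -0.25 without the pools numbered 3), the inhibitory cone phosphodiesterase subunit Pde6h at -0.27 (SE 0.152) and Rxrg at -0.27 (SE 0.112). Rxrg read 6.7 and 6.7 in SD hyperoxia against 6.9, 7.0 and 7.0 in room air.

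The other members named for SD were Unc119 at -0.33 (SE 0.149), Gnb1 at 0.28 (SE 0.24), Pde6b at 0.18, Aipl1 at 0.18, Gnb3 at 0.15, Prdm1 at 0.22 and Neurod1 at 0.08. Without the pools numbered 3, Gnb1 stood at 0.05, Gnb3 at 0.05 and Pde6b at 0.35. Adjusted p lay between 0.815 and 0.872 for all members named here. The other photoreceptor genes did not pass, with Rpgrip1 at 0.25 and Impg2 at 0.23, nor did the other fate regulators, with Neurod4 at -0.22 and Dicer1 at 0.17. The summed level of the endothelial genes was 223 to 246 in SD hyperoxia and 270 to 357 in SD room air. That of the ganglion cell genes was 2101 to 2172 against 2302 to 3057, with a median difference of -0.20 and Sncg at -0.58. That of the amacrine and horizontal cell genes was 6206 to 6271 against 5834 to 6011, with a median difference of -0.02. The part of these lists was not tested.

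**Figure D5:**
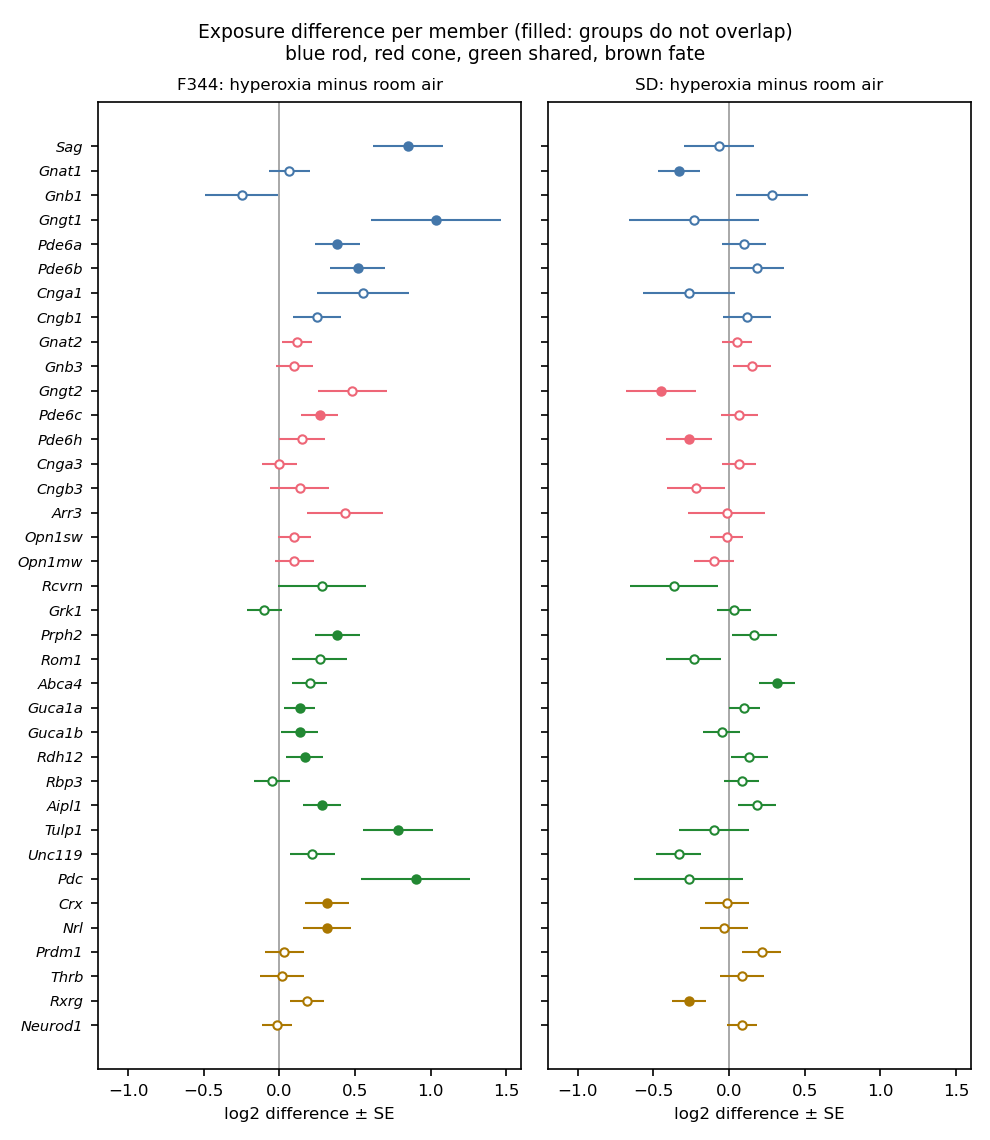
Hyperoxia minus room air for each measured member (rows, by role) in F344 and in SD, as log2 difference with bars of 1 SE. In F344 most points lie right of 0 (32 of 37), in SD they lie on both sides (18 above and 19 below), and none passed the test.

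The difference between the 2 exposure effects (SD minus F344) was tested directly. By limma 0 of 37 members passed (6 at an unadjusted p under 0.05), against 0% of all probe sets, where 2054 had an unadjusted p under 0.05. The members' median was -0.22 and that of all genes 0.02, with 28 members below 0 and 9 above. With the term for the pools numbered 3, and likewise without those pools, the median was -0.10. Sag stood at -0.92 (SE 0.326), Tulp1 at -0.88 (SE 0.326) and Gngt2 at -0.93 (SE 0.327), each with an adjusted p of 0.651, and all 3 were at -0.50 without the pools numbered 3. The difference of Gngt1 was -1.27 (SE 0.607) and that of Pdc was -1.17 (SE 0.509), and with the term they were -0.35 and -0.40. Unc119 stood at -0.55 (SE 0.21), Gnat1 at -0.40 (SE 0.195), Pde6h at -0.42 and Cngb3 at -0.35. Without those pools Unc119 was at -0.35, Gnat1 at -0.40, Pde6h at -0.25 and Cngb3 at -0.05. Among fate regulators Rxrg stood at -0.45 (SE 0.158), Nrl at -0.35 and Crx at -0.33 (-0.15 without those pools). Ganglion cell genes moved with this comparison: 7 of 9 lay below 0, with a median of -0.17 (-0.20 with the term) and Sncg at -0.88, and their part was not tested. The other lists likewise held no called gene, with Rgs9bp at 0.32 and Impg1 and Fscn2 at -0.23 each, and Neurod4 at -0.63 and Dicer1 at 0.28.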

How the data were processed

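The deposited values are log2 expression per probe set, to 1 decimal, from 3.1 to 14; per the submitters' processing notes, the tools were RMA and Partek 6.4, without their role. Beyond the name RMA, how the authors normalized is not given in the sources used here. Array medians lay between 5.9 and 6, and having 10 arrays limits the precision. All 27342 probe sets entered the fit. Of these, 15097 had 1 gene symbol, 323 several and 11922 none.

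Tests used limma 3.58.1 in R 4.3.3: group means over 10 arrays (6 residual degrees of freedom), default eBayes, two-sided, Benjamini-Hochberg adjustment over all probe sets, threshold 0.05. The pools numbered 3 were compared by adding a term for them (5 residual degrees of freedom). The fit was tested on simulated data. Members and lists were chosen with earlier results of these data known. Named were members passing the test, otherwise the 3 smallest p per role, and up to 4 passing genes of other lists or the 2 largest differences. Pools share no stated pairing: arrays with number 1 or 2 had correlations of deviations from -0.0733 to 0.397, and the 1 pair numbered 3 had 0.644. Alternatives covered normalization, filters, eBayes settings, array weights, gene summaries, samples used and each array left out.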

Additional observations from a re-analysis of the deposited data

Results flagged for a closer look

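Pdc differed between the strains in opposite directions under the 2 exposures. In room air the SD pools read 8.4, 8.4 and 9.5 and the F344 pools 8.1 and 8.1, so every SD pool was higher. In hyperoxia the SD pools read 8.5 and 8.5 and the F344 pools 8.6, 8.6 and 9.8, so every SD pool was lower. The strain difference in room air exceeded that in hyperoxia by 1.17 on the log2 scale. The test of this difference, as the difference of the exposure effects, did not pass (limma adjusted p = 0.651), and with a term for the pools numbered 3 its size was -0.40 in place of -1.17 (SD minus F344). Groups of 2 or 3 pools are too small for a test of outlying pools.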

How the results depend on the processing

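No member passed for the exposure in SD, in F344 or for their difference in any of the 21, 21 and 20 alternatives. Between the strains in room air, where 1 member passed, 2 passed with median centring, with array weights, with 1 probe set per gene, with probe sets averaged per gene and with the replicate block, 3 with the term for the pools numbered 3 and 0 with only the groups compared; leaving out 1 pool gave 0 to 3. In hyperoxia, where 1 passed, 0 passed with only the groups compared and without both pools numbered 3, and 0 to 1 with 1 pool left out. For the pools numbered 3, 13 passed and leaving out 1 pool gave 5 to 13. The highest count for these pools over 18 alternatives was 16. The members' median difference of the exposure effects (-0.22) ran from -0.38 to -0.15 with 1 pool left out. The strain difference of Gngt1 in hyperoxia reversed from -0.43 to 0.025 with the replicate block and with the term. With the block the count of the pools numbered 3 stayed at 13; the numbers mark no stated litter or day, and 7 of 10 arrays correlated best with an array of their own number. Causes were not tested. Groups of 2 or 3 pools and values at 1 decimal limit what could be detected, most of all in the 7 dim members.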
